A study of Mus musculus with 8 samples.

Results

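The genes that endocrine cells use to pack and mature peptide hormones, the granins and the prohormone processing enzymes, were examined in sorted tuft cells of the mouse small intestine. The members were taken by name from the deposited counts as the rows Chga, Chgb, Scg2, Scg3, Scg5, Pcsk1, Pcsk2, Pcsk1n and Cpe, which are 9 of the 35199 genes listed. Tuft cells, a rare epithelial lineage of the gut, sense luminal chemicals. All 8 mice carried the BAC transgene Dclk1-DTR-ZSgreen, backcrossed to C57BL/6J, in which the Dclk1 locus drives a diphtheria toxin receptor and the green reporter ZSgreen. The sort took live EPC-high cells positive for ZSgreen, so the population is defined by the reporter and not by other tuft markers. Of these, 4 mice received scopolamine, an antagonist of muscarinic acetylcholine receptors, at 0.5 mg per kg per day from an osmotic pump for 7 days, and 4 sham mice received sodium chloride. Pumps were implanted at 8 to 10 weeks of age, and the study used both sexes. Each library came from 1 mouse, and the replicates are called scopolamine 1 to 4 and sham 1 to 4.

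Peptide hormones are made as large precursors. In dense core secretory granules the granins, acidic proteins such as chromogranin A and secretogranin II, condense with the cargo, while the prohormone convertases PC1/3 and PC2 cut the precursor at basic residues and carboxypeptidase E removes the residues left at the cut end. In the gut these genes mark enteroendocrine cells, and Chga is a textbook marker of that lineage.

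Total counts ran from 14343362 to 20857433 in the scopolamine libraries and from 25769940 to 41428916 in the sham libraries, so each sham library was deeper than each treated one, and depth cannot be told apart from treatment. Levels are given in CPM, which divides counts by the library total and its TMM factor, and 3 counts, used as a floor, correspond to 0.0729 to 0.212 CPM. Sham 1 and sham 3 were amplified from 200 pg of RNA with 15 cycles, and the other 6 libraries from 1000 pg with 10 cycles. The tuft marker Dclk1 stood at 4359 ± 1009 CPM in treated and 4871 ± 687 CPM in sham mice (SD, n = 4 each), and all 23 tuft markers examined had counts past the expression filter.

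Sham 3 stood far above the other sham mice for Chga, Chgb and Scg2. It held the highest level among the sham mice for 7 of the 9 members, and ranked between 1 and 3 among all 8 mice for Chga, Chgb, Scg2, Pcsk1, Pcsk1n and Cpe. Its lead was small for Pcsk1n (1.07 against 0.946 CPM in sham 1) and rested on 3 counts for Scg3. The share of all genes that were highest there among sham mice was not computed. The fold changes of the members are therefore given without this library as well.

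The promoters of 8 members were matched in the RefSeq table of GRCm38.p6, and Cpe was not used there. Each window runs from position -250 to 50 around the annotated start. The cAMP response element (CRE), a palindrome bound by CREB and related factors and long known in granin promoters, was searched as TGACGTCA and its short form as TGACGT, on both strands, where every full element also holds the short form. The full element was found in 3 of the 8 promoters, those of Chgb, Scg2 and Pcsk1, and in 588 of all 32851 promoters of this length (1.79%). The short form was found in 5 of the 8, with Chga and Scg5 added, and in 7.51% of all promoters. The letters TATAA, searched on the gene's strand, were found in 2 of the 8, Chga and Scg2, and in 17.5% of all promoters. These are matches of letters, and no binding was measured. The 4 promoters below are shown from position -130 to 50 because they hold CRE letters shortly upstream of the start, whereas the short forms of Scg5 began at -175 and at 40. The windows are chr12:102554811-102554990 on the plus strand for Chga, chr2:132781512-132781691 on the plus strand for Chgb, chr1:79439977-79440156 on the minus strand for Scg2 and chr13:75089727-75089906 on the plus strand for Pcsk1. They are written 5′ to 3′ along the gene, with the CRE letters and TATAA in capitals.
Chga: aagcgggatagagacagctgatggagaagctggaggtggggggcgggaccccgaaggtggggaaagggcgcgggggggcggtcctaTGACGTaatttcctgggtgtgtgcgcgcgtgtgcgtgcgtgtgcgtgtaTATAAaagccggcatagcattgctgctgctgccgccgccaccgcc
Chgb: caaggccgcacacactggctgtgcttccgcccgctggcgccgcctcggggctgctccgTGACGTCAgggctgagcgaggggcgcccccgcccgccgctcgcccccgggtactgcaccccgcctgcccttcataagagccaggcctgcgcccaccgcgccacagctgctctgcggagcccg
Scg2: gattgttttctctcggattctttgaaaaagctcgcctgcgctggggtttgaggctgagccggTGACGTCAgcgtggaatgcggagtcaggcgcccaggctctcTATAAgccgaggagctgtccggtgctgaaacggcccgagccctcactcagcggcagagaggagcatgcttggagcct
Pcsk1: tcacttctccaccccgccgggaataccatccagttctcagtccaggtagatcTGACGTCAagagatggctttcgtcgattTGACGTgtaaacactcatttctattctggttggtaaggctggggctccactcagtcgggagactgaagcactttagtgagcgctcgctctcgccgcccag
The full element began at position -72 in Chgb, -68 in Scg2 and -78 in Pcsk1, and the short form in Chga began at -44. The letters TATAA in Chga lie from 6 to 10, after the RefSeq start used here. GENCODE starts Chga further downstream, at 102554969, so positions in Chga depend on the start used. Pcsk1 held another short form at -50. For comparison the same stretch is shown for Pcsk2 (chr2:143546003-143546182, plus strand) and Scg3 (chr9:75684007-75684186, minus strand), the members whose levels separated the treated from the sham mice. Neither holds these letters within its window. Among sham mice, Chga, Chgb, Scg2 and Pcsk1, with CRE letters, were highest in sham 3, and Scg5, with 2 short forms, had a count of 0 there. Scg3 and Pcsk1n, with no CRE letters, were also highest there. Scg3 held only 3 counts, however, and Pcsk1n was at 1.07 CPM against 0.946 CPM in sham 1. Whether the letters bear on these levels was not tested.
Pcsk2: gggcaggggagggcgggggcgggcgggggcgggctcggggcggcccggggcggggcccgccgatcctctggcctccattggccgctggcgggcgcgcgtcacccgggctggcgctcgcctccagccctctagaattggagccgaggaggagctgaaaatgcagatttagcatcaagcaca
Scg3: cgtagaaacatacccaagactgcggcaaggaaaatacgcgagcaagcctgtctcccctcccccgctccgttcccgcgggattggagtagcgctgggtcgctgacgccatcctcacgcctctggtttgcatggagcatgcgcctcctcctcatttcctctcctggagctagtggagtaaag

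**Figure D1:**
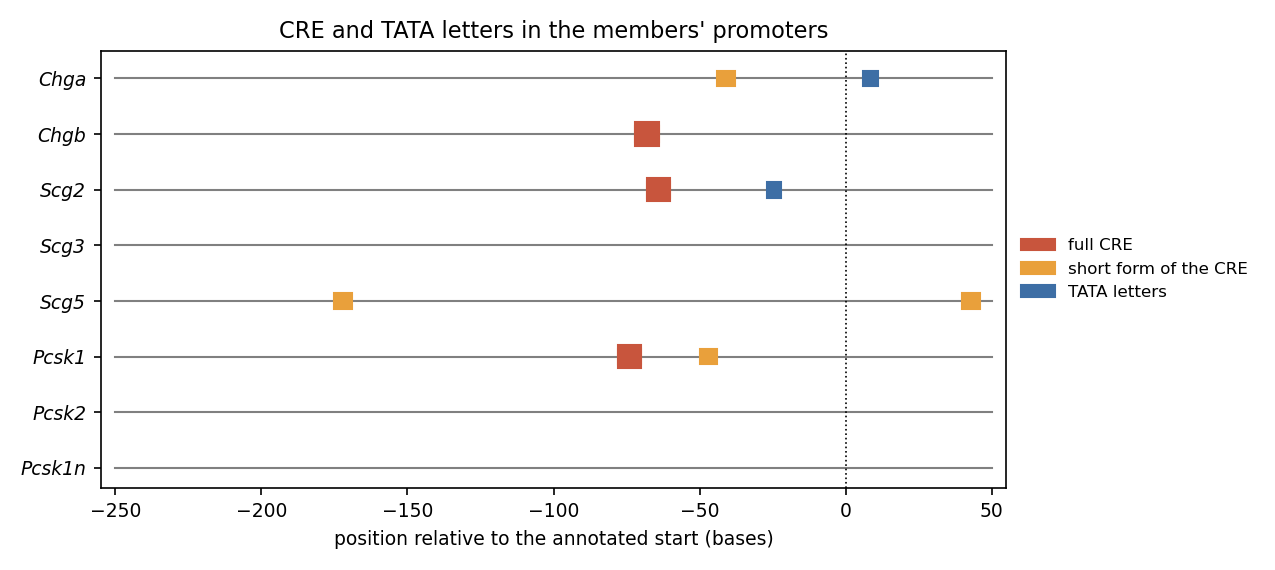
Positions of the full CRE, its short form and the letters TATAA in the promoters of 8 members, in bases relative to the annotated start (x axis). Full elements lie between -78 and -61 in Chgb, Scg2 and Pcsk1, and no CRE letters were found in Scg3, Pcsk2 or Pcsk1n.

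Per kilobase of merged exons (GENCODE M21), the granins Chgb and Chga had the highest levels of the members and Cpe the third highest in both groups. With scopolamine the mean level was 69.1 ± 49.6 CPM per kb (SD, n = 4) for Chgb, 43.5 ± 38.2 for Chga, 10.7 ± 7.56 for Cpe, 2.78 ± 2.16 for Scg2, 2.36 ± 2.68 for Scg5, 1.04 ± 0.940 for Pcsk1n, 0.978 ± 1.11 for Pcsk1, 0.459 ± 0.419 for Scg3 and 0.188 ± 0.0522 for Pcsk2. In sham the order was Chga at 24.0 ± 46.8 CPM per kb, Chgb at 16.2 ± 26.0, Cpe at 10.1 ± 11.7, Scg5 at 1.76 ± 2.22, Pcsk1 at 1.02 ± 0.979, Scg2 at 0.732 ± 1.36, Pcsk1n at 0.292 ± 0.208, Pcsk2 at 0.0294 ± 0.0230 and Scg3 at 0.0103 ± 0.0147. Every pair of neighbours in either order had overlapping ranges over the 4 mice. The sham order of the leading members rested on sham 3, and without it Cpe came first at 4.81 ± 6.11 CPM per kb (SD, n = 3), followed by Chgb at 3.34 ± 4.803 and Scg5 at 2.35 ± 2.31, with Chga below Pcsk1 at 0.569 ± 0.423. By mean CPM over all 8 libraries, Chgb lay above 93.5% and Chga above 88.1% of the 21805 genes with a count, whereas Scg3 and Pcsk2 lay above 39.6% and 38.9%.

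Chromogranin A, encoded by Chga (chromosome 12 from 102554969 to 102565028 of GRCm38, plus strand), is the most widely used marker of endocrine granules. Its level was 62.0, 74.4, 9.95 and 181 CPM in scopolamine 1 to 4 and 0.341, 1.92, 177 and 0.955 CPM in sham 1 to 4. All 4 treated mice lay above 3 of the sham mice, and sham 3 lay next to the highest treated mouse. The fitted log2 fold change was 0.86 (SE 1.53, adjusted p = 0.959 in edgeR, as all adjusted p below unless named otherwise), within the spread between mice. The difference in mean log2(CPM + 0.5) was larger, at 3.51, with p = 0.114 in the exact permutation test on that scale, and limma-voom gave 3.85 (adjusted p = 0.634). Without sham 3 the log2 fold change was 6.22 (SE 1.02, adjusted p = 0.688), and without scopolamine 4 it was 0.12. In bulk libraries, fewer cells of a type and less RNA per cell cannot be told apart.

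Chromogranin B, encoded by Chgb (chromosome 2 from 132781278 to 132795079, plus strand), is another major protein of the granule matrix. Its level was 144, 233, 29.7 and 351 CPM in scopolamine 1 to 4 and 24.3, 1.73, 150.1 and 1.37 CPM in sham 1 to 4. The treated mice again lay above 3 of the sham mice, although scopolamine 3 exceeded sham 1 only narrowly. Its log2 fold change was 2.09 (SE 1.25, adjusted p = 0.828), the difference in mean log2(CPM + 0.5) was 3.62 (p = 0.0857 in the exact permutation test), and limma-voom gave 3.93 (adjusted p = 0.616). It was 4.38 without sham 3 and 6.90 without both libraries made from 200 pg (adjusted p = 0.122, the lowest of its alternatives, which reached 0.999).

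Secretogranin II, encoded by Scg2 (chromosome 1 from 79434669 to 79440120, minus strand), is a granin cut into the neuropeptide secretoneurin. Its level was 0.301, 13.1, 9.03 and 5.58 CPM in scopolamine 1 to 4 and 0.189, 0.0729, 6.98 and 0.119 CPM in sham 1 to 4. The high values were those of 3 treated mice and sham 3, and scopolamine 1 was nearly as low as the other sham mice, which held 3 to 5 counts. The log2 fold change was 1.92 (SE 1.49, adjusted p = 0.873), with p = 0.114 in the exact permutation test, and 5.75 without sham 3.

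Secretogranin III, encoded by Scg3 (chromosome 9 from 75643189 to 75684056, minus strand), binds chromogranin A at the granule membrane. Its counts were 20, 54, 8 and 6 in scopolamine 1 to 4 and 0, 1, 3 and 0 in sham 1 to 4, which is 1.002, 2.53, 0.564 and 0.284 CPM against at most 0.0743 CPM. The groups did not overlap, and sham 3 did not stand apart here. The pooled rate was 40.6 times higher with scopolamine (95% exact Poisson interval 15.3 to 152, counting error only). The exact permutation test gave p = 0.0286, the smallest that 4 against 4 mice allow. Scg3 was removed by the expression filter, which asks for 0.429 CPM in 4 libraries. In the fit without a filter its log2 fold change was 5.15 (SE 1.54, adjusted p = 0.587), a value that depends on the prior count because no sham library exceeded the floor. Scopolamine 2 held 54 of the 88 treated counts, and without it the log2 fold change in that fit was 4.34. With DESeq2 the adjusted p was 0.0275, and 0.0222 to 0.446 when libraries were left out, the highest without scopolamine 2. Against this, 0.982% of genes with an adjusted p were called higher by DESeq2. After every library was thinned to the smallest total the counts were 14, 45, 8 and 5 against 0, 1, 2 and 0. The gene overlaps the predicted gene Gm37871 on the opposite strand.

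Secretogranin V or 7B2, encoded by Scg5 (chromosome 2 from 113776362 to 113829121, minus strand), is the chaperone of PC2. Its level was 7.46, 2.57, 0.141 and 1.23 CPM in scopolamine 1 to 4 and 5.60, 2.87, 0 and 0.0298 CPM in sham 1 to 4. The highest and lowest values were spread over both groups, and sham 3, high for Chga, Chgb and Scg2, had a count of 0. The fitted log2 difference was 0.43 (SE 1.61, adjusted p = 0.988), with p = 0.629 in the exact permutation test, and it fell to -0.68 without scopolamine 1.

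ProSAAS, encoded by Pcsk1n (chromosome X from 7919822 to 7924410, plus strand), is a granin-like protein that inhibits PC1/3. Its level was 2.10, 5.24, 1.06 and 0.709 CPM in scopolamine 1 to 4 and 0.946, 0.0729, 1.07 and 0.477 CPM in sham 1 to 4. Scopolamine 1 and 2 lay above all sham mice and the others lay among them. The fold change on the log2 scale was 1.83 (SE 0.996, adjusted p = 0.815), with p = 0.143 in the exact permutation test. It was 1.001 without scopolamine 2. Pcsk1n overlaps the protein-coding gene Eras on the opposite strand, which had 17, 5, 24 and 0 counts in the treated mice and 0 in each sham mouse, and whether the counting used strand is not stated.

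Pcsk1 (chromosome 13 from 75089826 to 75134861, plus strand) encodes PC1/3, the convertase that yields the intestinal forms of many gut peptides. Its level was 1.55, 3.04, 1.83 and 13.3 CPM in scopolamine 1 to 4 and 6.85, 0.535, 11.3 and 1.82 CPM in sham 1 to 4. Scopolamine 4 and both sham libraries made from 200 pg were high. The log2 fold change was -0.055 (SE 1.008, adjusted p = 0.996), with p = 0.943 in the exact permutation test. Its sign changed with the libraries used, from -1.26 without scopolamine 4 to 2.02 without both 200 pg libraries.

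Pcsk2 (chromosome 2 from 143546156 to 143816285, plus strand) encodes PC2, the convertase that works with 7B2. Its counts were 20, 12, 12 and 24 in scopolamine 1 to 4 and 5, 2, 2 and 9 in sham 1 to 4, or 1.002, 0.562, 0.846 and 1.13 CPM against 0.189, 0.0486, 0.0495 and 0.269 CPM. Every treated mouse lay above every sham mouse, and sham 3 was among the lowest. The mean was 6.37 times higher with scopolamine, the log2 fold change 2.65 (SE 0.814, unadjusted p = 0.00804, adjusted p = 0.812), and the exact permutation test gave p = 0.0286. At an unadjusted p under 0.05, 3.33% of all genes tested were higher. The difference did not pass the adjusted threshold in DESeq2 either (adjusted p = 0.153). The log2 fold change ran from 2.36 to 3.18 with each library left out. Pcsk2 passed the filter through the treated group alone, with 4 scopolamine and 0 sham libraries over its limit. It overlaps the antisense genes Pcsk2os1 and Pcsk2os2.

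Cpe (chromosome 8 from 64592542 to 64693054, minus strand) encodes carboxypeptidase E, which trims the basic residues left by the convertases. Its level was 6.46, 23.1, 44.3 and 16.5 CPM in scopolamine 1 to 4 and 25.1, 2.72, 54.8 and 2.72 CPM in sham 1 to 4. Both 200 pg sham libraries were high and both 1000 pg sham libraries were below every treated mouse. The log2 fold change was 0.081 (SE 0.905, adjusted p = 0.996), with p = 0.571 in the exact permutation test. Without both 200 pg libraries it was 3.03 (SE 0.760, adjusted p = 0.359).

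**Figure D2:**
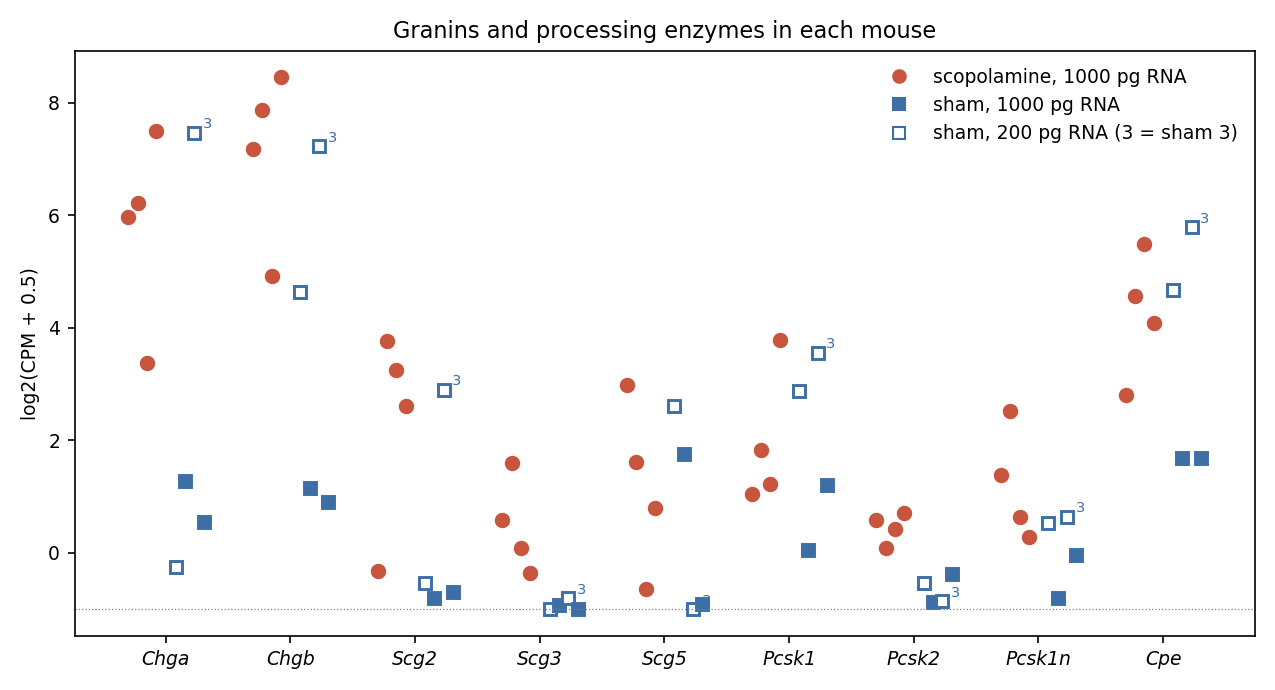
Level of each member in each mouse as log2(CPM + 0.5) (y axis), with circles for scopolamine, squares for sham, open symbols for libraries made from 200 pg of RNA and the digit 3 beside sham 3; the dotted line is a count of 0. Sham 3 lies with the scopolamine mice for Chga (177 CPM) and Chgb (150.1 CPM), whereas Scg3 and Pcsk2 separate all 4 treated from all 4 sham mice.

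Across the members, 8 of 9 had a higher fitted level with scopolamine and 1, Pcsk1, a lower one, with Scg3 taken from the fit without a filter. The median log2 fold change over the 9 was 1.83, beside -0.017 over the 21805 genes with a count, of which 10666 were higher. All 6 granins were on the higher side (median 1.87), and of the 3 processing enzymes 2 were (median 0.081). With edgeR 0 members passed an adjusted p under 0.1, as 0% of the 12849 genes tested did. In edgeR 770 genes had an unadjusted p under 0.05. With DESeq2 1 member, Scg3, passed, beside 0.982% of genes with an adjusted p that were called higher there. Groups did not overlap for 2 members, Scg3 and Pcsk2, while every treated library lay above every sham library for 1.44% of the genes with a count. For 5 members, Chga, Chgb, Scg2, Scg3 and Pcsk2, all treated mice lay above the sham mice other than sham 3, beside 2.31% of the genes with a count. Sham 3 was set aside for its high member levels, so this count is a description.

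Without sham 3, all 9 members had a higher fitted level, beside 49.8% of the genes tested. No member passed the threshold in edgeR, where 0 genes did, while Scg3 did in DESeq2 (adjusted p = 0.0224). The share of all genes called in that DESeq2 fit is not reported here. Leaving out the library with the highest sham level of 7 members raises their fold changes by construction, so the count of 9 is a description. Besides the values above, the log2 fold change without sham 3 was 6.28 for Scg3, 0.013 for Scg5, 2.19 for Pcsk1n, 0.69 for Pcsk1, 2.37 for Pcsk2 and 1.15 for Cpe. Without both sham libraries made from 200 pg, all 9 were higher as well, beside 50% of the genes tested. Their log2 fold changes ran from 0.98 for Scg5 to 6.90 for Chgb. In these 6 libraries of equal RNA input, every treated mouse lay above both sham mice for 7 members, all but Scg5 and Pcsk1, beside 6.19% of genes with a count. Sham 3 is among the libraries left out here too, so the limit given for it holds for these counts. RNA input was not balanced between the groups, and its part in the levels of sham 1 and sham 3 was not tested.

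**Figure D3:**
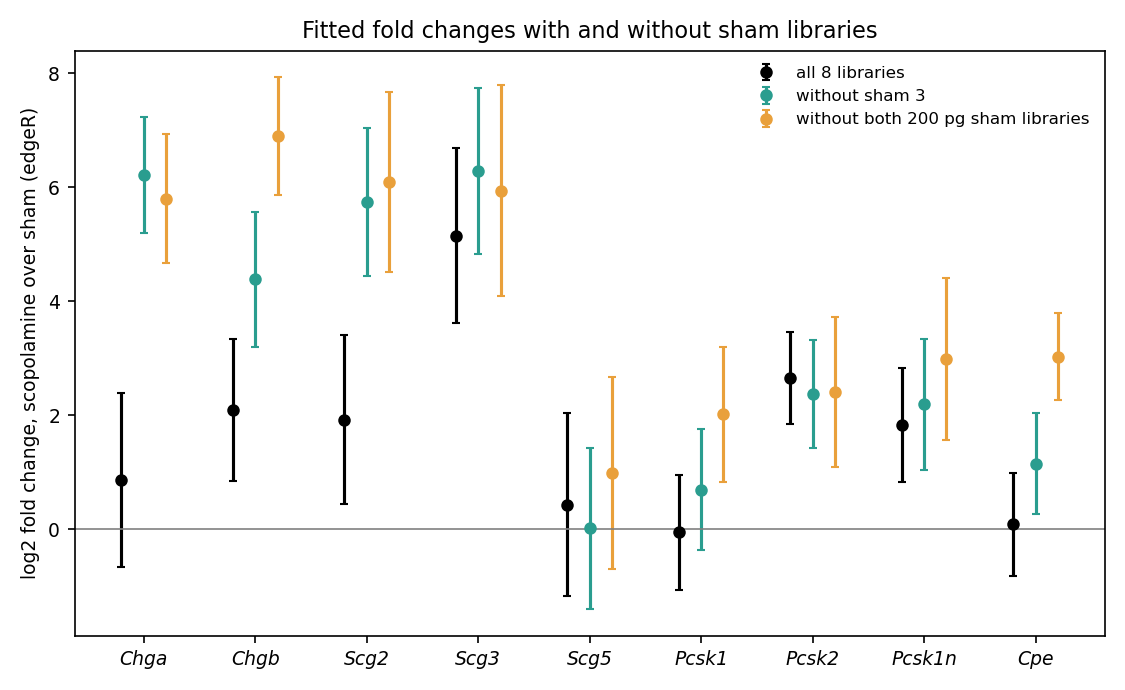
Fitted log2 fold changes of scopolamine over sham in edgeR (y axis) with standard errors as bars, from all 8 libraries, without sham 3, and without both sham libraries made from 200 pg; for all 8 libraries Scg3 comes from the fit without a filter. Chga moves from 0.86 to 6.22 and Scg2 from 1.92 to 5.75 when sham 3 is left out, while Pcsk2 stays between 2.37 and 2.65 in these fits.

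The mouse IDs carried one of 2 letters, M for scopolamine 1 to 3 and sham 1 and N for scopolamine 4 and sham 2 to 4, a mark that the sources do not explain. With the letter M the treated mice lay above the sham mouse for 6 members, as 18.7% of the genes with a count did, below it for Pcsk1, as 23% did, and around it for Scg5 and Cpe. Under N the single treated mouse lay above all 3 sham mice for 5 members, Chga, Chgb, Scg3, Pcsk1 and Pcsk2, beside 24.9% of genes. Chga, Chgb, Scg3 and Pcsk2 were higher in the treated mice under both letters, beside 5.11% of genes. For Chga this meant at least 9.95 CPM against 0.341 CPM under M, and 181 CPM against at most 177 CPM under N. Each letter holds only 1 mouse of a group, so no test within a letter was made. With the letter as a covariate the log2 fold change was 3.91 for Chga, 2.63 for Chgb, 3.15 for Scg2, 0.98 for Pcsk1n, -0.20 for Scg5 and -0.16 for Cpe.

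The members did not vary as 1 block. Over the 8 libraries, where depth differed between the groups and RNA input within sham, log2 levels of Chga and Chgb had a Pearson correlation of 0.86, Scg3 and Pcsk1n one of 0.88, and Scg2 and Cpe one of 0.76, whereas Scg5 had -0.10 with Chga and -0.40 with Scg2. PC2 and its chaperone, Pcsk2 and Scg5, had a correlation of 0.17. Among the 12841 genes past the filter that are not members, the pattern most like Chga was that of Neurod1 (r = 0.98), a transcription factor of enteroendocrine differentiation. Neurod1 was at 4.26, 6.83, 2.12 and 6.24 CPM in scopolamine 1 to 4 and 0.0757, 0.413, 6.89 and 0 CPM in sham 1 to 4, the same split with sham 3 on the high side (log2 fold change 1.39, or 4.83 without sham 3). The closest genes were Rad51ap1 for Chgb (r = 0.96), Pbld2 for Scg2 (0.96), Chek2 for Scg5 (0.95), Tefm for Pcsk1 (0.98), C2cd4c for Pcsk2 (0.96), Vwa1 for Pcsk1n (0.92) and Zfyve26 for Cpe (0.99). These are the highest of all 12841 correlations for each member, over 8 points, and are given as a description.

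Of 16 other enzymes of peptide maturation, 15 had a count, 11 with a higher and 4 with a lower fitted level (median log2 fold change 0.13). Pcsk5, encoding the convertase PC5/6, was at 9.97, 15.1, 15.1 and 10.5 CPM in scopolamine 1 to 4 and 1.36, 2.26, 0.916 and 0.865 CPM in sham 1 to 4. The groups lay far apart, and sham 3 was as low as the other sham mice. The log2 fold change was 3.22 (SE 0.569, adjusted p = 0.439 in edgeR, with 4.03e-11 in DESeq2 and at most 2.78e-06 there when libraries were left out). Qpct, encoding the glutaminyl cyclase that forms the pyroglutamate end of some hormones, had 1, 64, 27 and 46 counts in the treated mice and 0 in each sham mouse, so that its mean was at least 20.3-fold higher against a floor of 3 counts per library (adjusted p = 0.587 in edgeR without a filter, 0.00214 in DESeq2, and up to 0.115 there without scopolamine 2). The 4 most abundant had overlapping ranges in both groups. The aminopeptidase Rnpep was at 227 ± 37.2 and 172 ± 48.3 CPM (SD, n = 4 each, scopolamine and sham), the carboxypeptidase Cpm at 216 ± 109.7 and 167 ± 100.2 CPM, the site-1 protease Mbtps1 at 48.4 ± 15.8 and 44.2 ± 7.81 CPM, and Furin, the convertase of the constitutive pathway, at 44.5 ± 19.2 and 41.1 ± 15.1 CPM. Cpz was listed at 0 in every library.

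Of 10 other genes of dense core granules, 5 had a higher and 5 a lower fitted level (median 0.40). Resp18, a granule luminal protein, had 130, 32, 5 and 5 counts in scopolamine 1 to 4 and 0, 1, 1 and 3 in sham 1 to 4, with a pooled rate ratio of 63.5 (95% exact Poisson interval 26.7 to 198, counting error only; adjusted p = 0.587 in edgeR without a filter and 0.00885 in DESeq2, up to 0.154 there without scopolamine 1, with no adjusted p given without scopolamine 2). The treated mice lay above the sham mice, and scopolamine 1 held most of the counts. The granule biogenesis genes Hid1, Eipr1 and Ccdc186 were at 47.9 ± 9.10, 44.7 ± 15.8 and 33.9 ± 6.82 CPM with scopolamine and 50.6 ± 10.3, 48.0 ± 25.1 and 38.5 ± 3.06 CPM in sham (SD, n = 4). Ica1, an islet autoantigen of granule membranes, was at 8.60 ± 4.26 and 4.39 ± 2.57 CPM (log2 fold change 0.97, adjusted p = 0.854).

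The substrates of the pathway were unevenly spread over the mice. Of 16 prohormone precursor genes 13 had a count, 9 with a higher and 4 with a lower fitted level (median 0.58), and Insl5, Gal and Npw were listed at 0 in every library. Secretin (Sct), the most abundant, was at 222 ± 30.3 CPM in treated and 243 ± 60.0 CPM in sham mice (log2 fold change -0.13, SE 0.198, adjusted p = 0.937). Cholecystokinin (Cck) was at 0.952, 148, 112 and 146 CPM in scopolamine 1 to 4 and 0.151, 11.9, 259.9 and 0 CPM in sham 1 to 4. Proglucagon (Gcg) was at 3.61, 95.6, 4.30 and 82.9 CPM and at 0.606, 0.0729, 134 and 0.149 CPM. The log2 fold change was 0.58 for Cck and 0.47 for Gcg, and 4.64 and 7.47 without sham 3. Both Cck and Gcg peaked in sham 3, as did neurotensin (Nts), which reached 300.2 CPM there, 28.6 CPM in scopolamine 2 and at most 0.0705 CPM in the other mice. Amylin (Iapp) separated the groups, at 5.56, 6.36, 11.1 and 7.28 CPM in scopolamine 1 to 4 and 1.02, 0.948, 2.48 and 2.60 CPM in sham 1 to 4. Its log2 fold change was 2.10 (SE 0.651, adjusted p = 0.812 in edgeR, 0.00885 in DESeq2 and at most 0.0844 there when libraries were left out). Urocortin 3 (Ucn3) had 1, 28, 1 and 77 counts with scopolamine and 0, 0, 1 and 0 in sham, where 2 treated mice were within the floor (adjusted p = 0.587 in edgeR without a filter, 0.0408 in DESeq2 and up to 0.491 there without scopolamine 4, again with none given without scopolamine 2).

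Markers of other epithelial and immune cells were present in every library. The 16 enteroendocrine markers that are no members summed to 90.8 to 236 CPM with scopolamine and 59.0 to 107 CPM in sham, and 13 of them had a higher fitted level (median 1.014, or 0.83 with genes absent from sham at their bound). Ddc was at 90.2 ± 19.7 and 57.8 ± 25.4 CPM (scopolamine and sham), Tph1, the serotonin synthesis enzyme, at 22.2 ± 21.0 and 4.65 ± 8.99 CPM, the monoamine transporter Slc18a1 at 13.0 ± 7.36 and 6.47 ± 2.44 CPM, and Gfra3 at 5.43 ± 5.73 and 4.997 ± 9.99 CPM. The 3 markers with a lower fitted level were Cplx2, Isl1 and Rfx6. Insm1, a transcription factor of endocrine cells named here after its values were seen, was the only one of these markers whose groups did not overlap, beside 1.44% of the genes with a count. It was at 0.601, 7.21, 0.635 and 1.56 CPM against 0.568, 0.340, 0.223 and 0.597 CPM (adjusted p = 0.812), a narrow gap. Its log2 fold change fell from 2.53 to 1.09 without scopolamine 2. The 9 members summed to 226, 358, 97.4 and 571 CPM in scopolamine 1 to 4 and 63.6, 9.99, 402 and 7.76 CPM in sham 1 to 4. The precursors summed to 1153 CPM in sham 3, above the 256 to 615 CPM of the treated mice.

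The same mice also differed in markers of absorptive and secretory cells. All 18 enterocyte markers had a higher fitted level (median 1.56), summing to 3524 to 7945 CPM with scopolamine and 2723 to 7080 CPM in sham. Fabp1 was at 3409 ± 1216 and 3073 ± 1467 CPM (scopolamine and sham), Apoa1 at 470.4 ± 366 and 136 ± 173 CPM, and Prap1 at 262 ± 165 and 123 ± 63.8 CPM. The brush border genes Slc5a1 (log2 fold change 2.51) and Anpep (2.45) had adjusted p of 0.812 in edgeR and 0.00464 and 0.0399 in DESeq2 (up to 0.0674 and 0.258 when libraries were left out). All 16 goblet and Paneth markers were on the higher side too (median 1.65), summing to 2296 to 14482 CPM and 802 to 3590 CPM. Reg3b was at 2697 ± 3193 and 807 ± 568 CPM, Reg3g at 1772 ± 1959 and 454 ± 267 CPM, Tff3 at 415 ± 279 and 296 ± 107 CPM and Zg16 at 604 ± 690 and 104 ± 105 CPM. Sham 1, made from 200 pg, was the highest sham library for both lists.

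Lymphocyte markers summed to 64.0 to 228 CPM with scopolamine and 57.9 to 286 CPM in sham, with 10 of 12 on the higher side. Ptprc was at 83.3 ± 40.5 and 79.1 ± 29.3 CPM (scopolamine and sham), Gzma at 20.0 ± 20.2 and 17.2 ± 33.1 CPM, Ccl5 at 9.02 ± 5.41 and 6.58 ± 12.9 CPM and Itgae at 8.40 ± 5.28 and 3.93 ± 4.55 CPM. Enteric neurons also use the granins, and 12 markers of neurons and glia summed to 4.87 to 11.4 CPM (scopolamine) and 4.01 to 7.73 CPM (sham). Of these, S100b was at 3.64 ± 1.38 and 3.57 ± 0.682 CPM, Prph at 0.386 ± 0.600 and 1.81 ± 2.05 CPM, Snap25 at 0.916 ± 1.63 and 0.306 ± 0.477 CPM, and Ret reached 7.76 CPM in 1 treated mouse and 0 in sham, while Sox10 was at 0 in every library. The 23 tuft markers summed to 33889 to 55991 CPM and 41498 to 48518 CPM, with 19 of 23 on the lower side (median -0.15). Krt18 was at 20579.7 ± 4753 and 21201 ± 1628 CPM and Avil at 2384 ± 782 and 2479.6 ± 209.96 CPM. The part of cells other than tuft cells in the member levels was not tested.

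**Figure D4:**
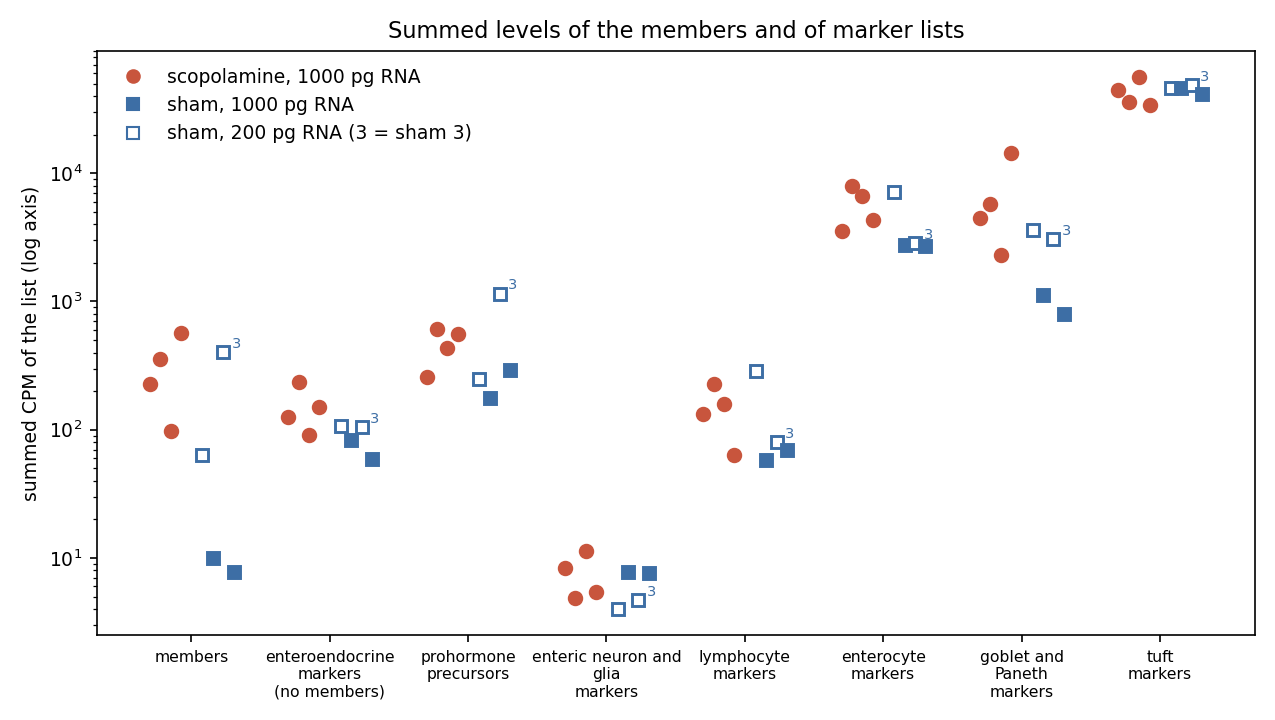
Summed CPM of the 9 members and of 7 gene lists in each mouse (y axis, log scale), with circles for scopolamine, squares for sham and open symbols for libraries made from 200 pg of RNA. Sham 3 is the highest sham mouse for the members (402 CPM) and the highest of all mice for the prohormone precursors (1153 CPM), while the tuft markers sum to at least 33889 CPM in every mouse.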

How the data were processed

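RNA of ZSgreen-positive cells from 8 mice was amplified with the Clontech Ultra Low v4 kit and sequenced after Nextera XT preparation. Base calls were converted and trimmed with bcl2fastq 2.20, and reads were assigned to the GRCm38 transcriptome with kallisto 0.44.0, per the submitters' processing notes and the study's methods. The authors summed transcripts to genes with tximport and deposited estimated counts that were not normalized. All deposited values are whole numbers, so rounding before the tests changed 0 values, and the step that made them whole is not given in the sources used here. Which annotation release was used, and whether strand was, is not given in the sources used here, so genes overlapping others can share reads.

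Treatment, cells sorted (3000 for scopolamine 1 and sham 1, 4000 otherwise) and mouse ID came from the sample labels, where replicate numbers follow the order of samples and pair nothing. RNA input and cycles came from the study's source data. Every pair of libraries differed by more than sampling noise (smallest chi-square per degree of freedom 67.5). Nothing says that mice shared no litter or cage, and p-values measure the spread between these mice.

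Groups were compared with edgeR 4.0.16 in R 4.3.3 (TMM factors, the filterByExpr filter and the quasi-likelihood test, called at an adjusted p under 0.1 by the Benjamini-Hochberg method over all genes tested), and DESeq2 1.42.0, the study's tool, was an alternative. Of 35199 genes listed, 21805 had a count and 12849 passed the filter. Genes the filter removed took their values from the same fit without it. Single members were compared by exact permutation tests, two-sided, of log2(CPM + 0.5) over 70 assignments, 1 test for each of 9 members. The edgeR and DESeq2 fits were tested on simulated counts with known changes, where false calls exceeded the nominal rate with DESeq2 and not with edgeR. The simulated counts took their dispersions from edgeR's own estimates and covered only genes past the filter. Scg3, Qpct, Resp18 and Ucn3 were therefore not among them, and the simulation does not rank the tools for these genes. Alternatives were DESeq2, limma-voom (limma 3.58.1), other scalings and filters, a stricter threshold, thinning to equal depth, covariates for cycles and mouse ID letter, and leaving out libraries. DESeq2 without each library was added after the data were seen.

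Members and gene lists were chosen with earlier results of these data known. Named genes were the members, the 4 most abundant genes of each other list, those listed at 0, the genes most correlated with each member, and list genes with an adjusted p under 0.1 in edgeR or DESeq2. Some genes that this rule names are not reported here. Coordinates and exon lengths are from GENCODE M21 (GRCm38) and promoters from RefSeq (GRCm38.p6).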

Additional observations from a re-analysis of the deposited data

Results flagged for a closer look

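Some values stood far from the other mice of their group, with a gap to the nearest mouse above Dixon's 95% critical value for 4 samples. Of 38 groups examined, 8 held such a value. The nominal rate of about 1 in 20 assumes normal values and separate groups. The rule was applied here to CPM and not to their logs, and the groups share genes and libraries. The count is therefore a description. Sham 3 stood above the other sham mice for Chga (177 CPM), Chgb (150.1 CPM), Scg2 (6.98 CPM), the summed members (402 CPM) and the summed prohormone precursors (1153 CPM). The summed values contain the same genes or their substrates, so these are not separate observations. Scopolamine 4 stood above the other treated mice for Pcsk1 (13.3 CPM). Sham 1 stood above the other sham mice for the summed enterocyte markers (7080.1 CPM) and the summed lymphocyte markers (286 CPM). Sham 1 and sham 3 are the libraries made from 200 pg of RNA.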

How the results depend on the processing

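The count of genes with an adjusted p under 0.1, 0 in edgeR, was 190 with DESeq2, 9 without both sham libraries made from 200 pg, 5 with amplification cycles as a covariate, which marks these same libraries, and 0 to 2 when each library was left out; no member was among the edgeR calls. In edgeR 770 genes had an unadjusted p under 0.05. The number of members with a higher fitted level, 8 of 9, ran from 7 to 9 with each library left out and was 6 with the mouse ID letter as a covariate; with at least 10 counts required in every library, 2 of 3 remaining members were higher. Directions were unstable for 3 members. Pcsk1 ran from -1.26 to 0.69 with each library left out and was 2.02 without both 200 pg libraries, 2.07 with the cycles covariate and 0.31 with limma-voom, and its difference in mean log2 CPM was -0.030 with a pseudocount of 2. Scg5 ran from -0.68 to 1.57 and was -0.20 with the letter covariate, and Cpe ran from -0.48 to 1.15 and was -0.16 with that covariate. Among substrates, Gcg ran from -0.15 to 7.47, and Sct was 0.028 without both 200 pg libraries and 0.061 with the cycles covariate. The cause was not tested. The other 6 members kept their direction under every alternative run. The magnitude for Chga rested on sham 3 and scopolamine 4, from 0.12 to 6.22. Scg3 depended on the tool for its call. No paired analysis was possible because the labels number no replicates. At 3 counts as the floor, levels of Scg3 and Pcsk2 in sham, and of Scg2 in the sham mice other than sham 3, lie near what these depths can resolve.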
